A study of Mus musculus with 28 samples.

Results

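The comparison described here is between subchondral bone taken 6 weeks and 1 week after destabilization of the medial meniscus (DMM) in mice. DMM cuts the ligament that anchors the medial meniscus, and the unstable knee then develops osteoarthritis. The members were chosen by their labels, as the bone samples of DMM mice, and came to 8 of the 28 arrays of the series, with 4 mice at 6 weeks (numbers 5, 6, 21 and 25) and 4 at 1 week (numbers 67, 77, 85 and 93). Another 8 bone arrays, of 4 sham mice at each week, were used beside them, and 12 arrays were of cartilage.

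All mice were male wild-type C57BL6 animals of 10 to 12 weeks of age at surgery, and every mouse was operated on in both knees. In sham mice the same ligament was exposed but not cut. Bone under the cartilage of the medial tibial plateau was cut out of frozen sections with a laser, and each bone array was of 1 joint of 1 mouse. The 6-week mice were also older at harvest by the extra weeks and carried lower numbers (5 to 26) than the 1-week mice (66 to 96). Time since surgery, age and the set of mice therefore cannot be told apart by the DMM arrays alone. The sham mice share those differences, and the DMM change was therefore also set against the sham change.

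MicroRNAs (miRNAs) are short RNAs that lower the output of messenger RNAs by pairing with them, mostly through a seed near the 5′ end of the miRNA. Subchondral bone holds bone-forming osteoblasts, osteocytes in the matrix, bone-resorbing osteoclasts, vessels, and marrow spaces with red and white blood cell precursors. In human and mouse osteoarthritis this bone is known to be remodelled and to thicken. An array of whole bone reads all these cells together, so fewer cells of a type and less RNA per cell cannot be told apart.

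Leading miRNAs that could be matched are shown first, by their mature sequences in the RefSeq table of build GRCm38.p6, which matched 399 of the 490 miRNAs tested. miR-1971, miR-378a-3p, miR-466f-5p and miR-466c-5p also lead the comparison but were not matched. Capitals mark the seed, bases 2 to 8. The first set is of miRNAs with higher signal at 6 weeks that were picked because each holds UGUGUG, so they share this repeat by choice:
miR-574-5p: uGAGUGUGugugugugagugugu
miR-1187: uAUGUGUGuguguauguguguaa
miR-3082-5p: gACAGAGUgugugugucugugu
miR-669n: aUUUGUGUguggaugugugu
miR-32-3p: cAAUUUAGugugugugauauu
miR-6348: uCAGCCUUuauaaggugugugu
They lie apart in the genome, on chromosome 5 (miR-574-5p at chr5:64970328-64970350, plus strand, and miR-1187 at chr5:82798964-82798986, minus strand), on chromosome 17 (miR-3082-5p, chr17:25831406-25831427, minus strand), on chromosome 3 (miR-669n, chr3:115979905-115979924, plus strand), on chromosome 4 (miR-32-3p, chr4:56895232-56895252, minus strand) and on chromosome 1 (miR-6348, chr1:168490740-168490761, plus strand). No seed is shared among these 6. The longest stretch of alternating G and U was 13 bases in miR-574-5p, 11 in miR-1187, 10 in miR-3082-5p, 9 in miR-32-3p and 8 in miR-669n and miR-6348.

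The second set is of the other leading miRNAs, first those higher and then those lower at 6 weeks, and is shown because these sequences lack that repeat:
miR-6904-5p: uCCUGGGGuuagaguugagugg
miR-18b-5p: uAAGGUGCaucuagugcuguuag
miR-378b: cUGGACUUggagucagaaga
miR-378d: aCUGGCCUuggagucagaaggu
miR-125a-5p: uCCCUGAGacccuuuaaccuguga
miR-99b-5p: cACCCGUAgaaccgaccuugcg
miR-132-3p: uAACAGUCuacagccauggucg
miR-326-3p: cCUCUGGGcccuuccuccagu
miR-125a-5p (chr17:17830817-17830840) and miR-99b-5p (chr17:17830194-17830215) are encoded beside each other on the plus strand. miR-378b (chr11:88352839-88352858, plus strand) and miR-378d (chr10:126710355-126710376, minus strand) share a run of 14 bases that reaches from the seed to near the 3′ end. miR-132-3p is at chr11:75173723-75173744 and miR-326-3p at chr7:99552328-99552348, both on the plus strand. miR-6904-5p is at chr1:180587206-180587227 on the plus strand and miR-18b-5p at chrX:52742381-52742403 on the minus strand.

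The bone label was checked against miRNAs typical of each tissue, with the limit that the deposited rows of cartilage and bone had been filtered apart. In the 8 DMM bone arrays the myeloid miR-223-3p had log2 signals of 11.9 to 13.4, against 6.69 to 9.01 in the 12 cartilage arrays. The red cell miR-451a had 10.9 to 13.3 in DMM bone and 6.84 to 10.1 in cartilage, while the cartilage miR-140-3p had 8.94 to 9.92 in DMM bone and 13.1 to 13.7 in cartilage. The bone arrays thus carried marrow and blood miRNAs at high signal. Osteocytes have no marker in the lists used here.

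The arrays varied between mice of the same group more than their medians did, which lay between 6.17 and 6.39. The first component of the deviations of the 16 bone arrays from their group means held 59.5% of that variance. Each array's signals, centred on the mean of the 16 arrays and not on group means, were projected on it. The result is called its gradient score below, and it therefore carries differences between groups and weeks too. DMM mice 21 and 25 at 6 weeks scored 10.4 and 8.23, sham mouse 68 at 1 week 11.0 and sham mouse 22 at 6 weeks 11.0. The other 12 arrays lay between -11.7 and 2.32. These 4 arrays stand apart, and 2 of them are 6-week DMM mice while 0 are 1-week DMM mice, so results that rest on them are given with and without them. They were picked at the high end alone. Arrays far out at the low end were kept, among them sham mouse 96 (-11.7) and DMM mouse 67 (-8.03), both at 1 week. Leaving out the 4 therefore trims the high scores only. The median correlation between arrays across miRNAs was 0.971 within the 1-week DMM group and 0.936 within the 6-week DMM group. Low GC content marked the low end of the component: the 20 miRNAs with the lowest loadings had a median GC content of 37.2% and the 20 with the highest 60.0%, against 54.5% over all matched miRNAs. Array depth in the sense of reads does not apply, and the number of mice limits the precision.

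Between 1 and 6 weeks after DMM, 0 of 490 miRNAs (0%) changed past an adjusted p of 0.05 by limma with Benjamini-Hochberg adjustment, and the smallest adjusted p was 0.212. At an unadjusted p under 0.05, limma listed 71 higher at 6 weeks (14.5%) and 24 lower (4.90%), 95 in all (19.4%). The median difference was -0.02 on the log2 scale over the 490, with 90% of them between -0.55 and 0.75, and 9 miRNAs differed at least 2-fold, each of them higher at 6 weeks. The median standard error was 0.23 and the median half-width of the 95% interval 0.49. For 34 miRNAs (6.94%) all 4 mice at 6 weeks lay above all 4 at 1 week, and for 21 (4.29%) all lay below.

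Of the 9 miRNAs that differed at least 2-fold, 7 were matched to a mature sequence, and 5 of these hold UGUGUG: miR-1187, miR-3082-5p, miR-574-5p, miR-669n and miR-32-3p. The matched miR-5622-3p and miR-451a do not hold it, and miR-466i-5p and miR-468-3p were not matched. miR-1187 had log2 signals of 9.27, 9.64, 10.21 and 10.13 in the 1-week DMM mice 67, 77, 85 and 93, and 10.74, 10.69, 11.65 and 11.28 in the 6-week DMM mice 5, 6, 21 and 25. All 4 mice at 6 weeks lay above all 4 at 1 week, with mice 21 and 25 highest. The difference was 1.28 ± 0.43 (SE, n = 4 a group), or 2.43-fold, with an adjusted p of 0.212 by limma and an exact two-sided permutation p of 0.0286, the smallest that the 70 splits of 8 arrays allow. Sham mice also had more at 6 weeks (9.93 to 11.88) than at 1 week (8.98 to 10.83), by 1.02, and there the weeks overlapped.

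miR-574-5p, an abundant miRNA with the longest GU run of those shown, had 10.08, 10.42, 10.88 and 10.82 at 1 week and 11.41, 11.33, 12.33 and 11.92 at 6 weeks in the same order of DMM mice. The weeks did not overlap, and the mean was 10.55 ± 0.37 (SD, n = 4) at 1 week and 11.75 ± 0.47 (SD, n = 4) at 6 weeks. The difference of 1.19 ± 0.42 (SE) was 1.00 in sham mice and 0.82 in DMM mice without the 4 arrays that stand apart. Its partner arm miR-574-3p pointed the other way, with -0.42 ± 0.16 (SE) and an adjusted p of 0.212 by limma. It had 6.27, 5.80, 6.05 and 6.26 at 1 week against 5.98, 5.56, 5.66 and 5.48 at 6 weeks, and the weeks overlapped.

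miR-3082-5p (1.24 ± 0.43, SE), miR-669n (1.11 ± 0.42), miR-32-3p (1.08 ± 0.42) and miR-6348 (0.95 ± 0.38) had the same pattern as miR-1187. miR-3082-5p had 9.61 to 10.42 at 1 week and 10.85 to 11.89 at 6 weeks, again highest in mice 21 and 25. In miR-32-3p, the 3p arm of the miR-32 hairpin, mice 5 and 6 had 8.57 and 8.69 and mice 21 and 25 had 9.73 and 9.60, against 7.47 to 8.46 at 1 week. The step from 1-week mice to mice 5 and 6 was thus small and the step to mice 21 and 25 larger.

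UGUGUG was searched on the mature strand alone, after the values had been seen, and counts any overlap of the repeat with itself. It was present in 18 of the 399 matched miRNAs (4.51%), and in 28 of the 1679 mature miRNAs of the table (1.67%). The 91 miRNAs without a matched sequence were not searched. Of the 47 matched miRNAs higher at an unadjusted p under 0.05, 13 held it, and of the 20 matched lower ones 0 did. The 18 had a median difference of 0.67 in DMM mice, against -0.02 over all 490, and 16 of them were positive. The exceptions were let-7b-5p (-0.33), which belongs to an abundant family of growth-restraining miRNAs, and miR-7226-5p (-0.13). In sham mice the median of the 18 was 0.61, and 15 of them had an unadjusted p under 0.05, against a background of 7.35% higher in that comparison.

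The size of the GU group's difference depended on the arrays that stand apart. Without them its median was 0.30, 17 of the 18 were positive, and 4 were higher at an unadjusted p under 0.05. In that fit 243 of all 490 were positive and 28 were higher at that p. The mean log2 signal of the 18 was 7.18 to 7.65 in DMM mice at 1 week, 7.73 and 7.84 in mice 5 and 6, and 8.44 and 8.42 in mice 21 and 25. All 4 mice at 6 weeks therefore lay above all 4 at 1 week also in this mean, but only narrowly. Sham mouse 22 had 8.65, the highest of the 16 arrays, and sham mouse 68 had 7.86, the highest of its group. With the gradient score as a covariate the median of the 18 was 0.43. The part of the gradient between arrays in this result was not tested further.

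**Figure D1:**
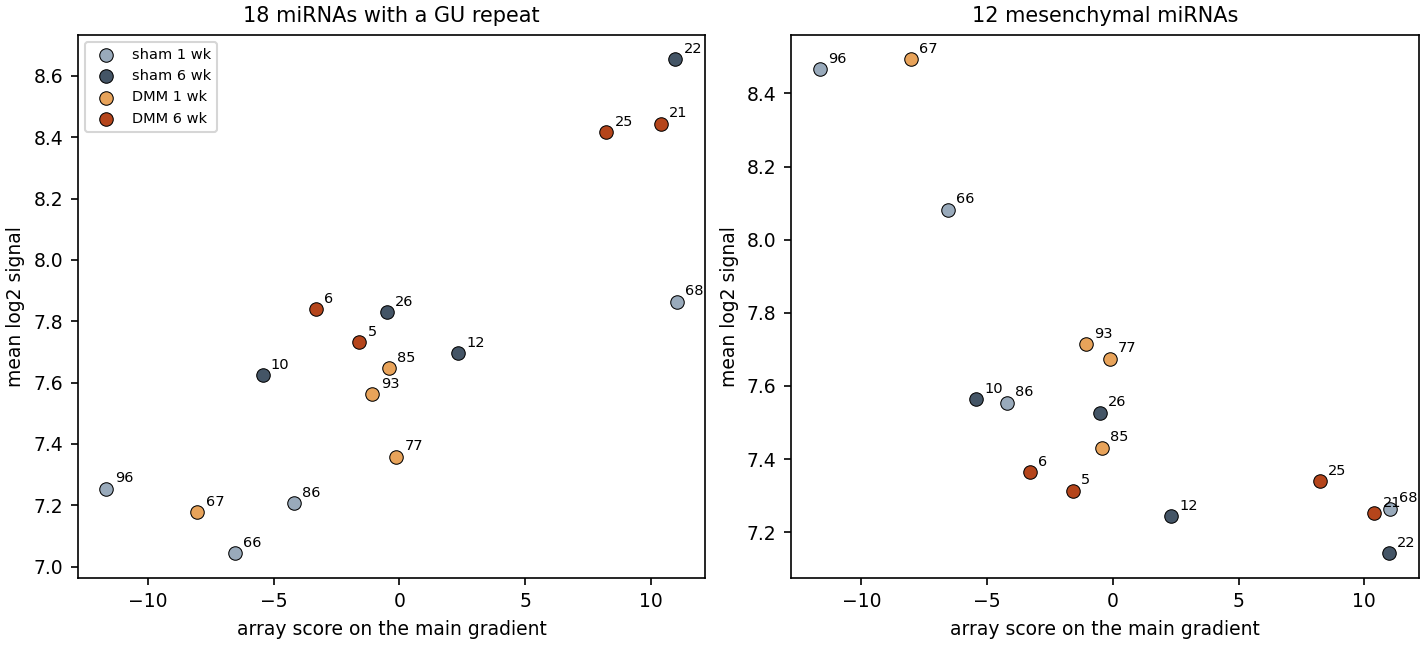
Mean log2 signal of the 18 miRNAs with a GU repeat (left) and of 12 mesenchymal miRNAs (right) against the gradient score of each of the 16 bone arrays, one point per mouse with its number, coloured by group. Mice 21, 25, 22 and 68 lie at the right end; the GU-repeat mean reaches 8.44 in mouse 21 and 8.65 in mouse 22, and the mesenchymal mean is 7.25 to 7.37 in the 4 DMM mice at 6 weeks.

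The Sfmbt2 cluster, a large rodent group of near-identical miRNAs within an intron of Sfmbt2, a gene of the Polycomb group, was listed with its relatives elsewhere, by name, and the list was written with earlier results known. Its members split by arm. The 5p arms had no matched mature sequence, so the search for UGUGUG did not cover them. Whether they form a group apart from the GU group was not tested. Of 19 5p arms, 18 had a positive difference, 15 were higher at an unadjusted p under 0.05 (78.9%, against 14.5% of all 490) and the median was 0.68. Of 8 3p arms all 8 were negative, 2 were lower at that p (25%, against 4.90% of all 490) and the median was -0.39. The 5 members with no arm in their name had 2 higher and 1 lower. These directions were the same under quantile normalization (0.63 for 5p and -0.39 for 3p arms) and with arrays centred on the 75th percentile (0.62 and -0.44).

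Within the list, miR-466i-5p was by far the brightest, with 11.39, 11.81, 12.22 and 12.17 at 1 week and 12.71, 12.65, 13.66 and 13.20 at 6 weeks, a difference of 1.16 ± 0.44 (SE) without overlap. miR-466f-5p had 5.86, 5.95, 6.20 and 6.18 at 1 week and 6.43, 6.49, 7.03 and 6.95 at 6 weeks. Its groups did not overlap either, and its difference was 0.68 ± 0.22 (SE) with an adjusted p of 0.212 by limma and an exact permutation p of 0.0286. miR-466c-5p had 0.72 ± 0.24 (SE), with 6.01 to 6.51 at 1 week and 6.62 to 7.32 at 6 weeks.

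Both arms of a hairpin come from the same precursor, and for miR-669f they moved apart. miR-669f-5p was 0.62 ± 0.24 (SE) higher and miR-669f-3p 0.56 lower (-0.56 ± 0.21, SE), each with an adjusted p of 0.212 by limma. miR-466i-3p had -0.32 and miR-466f-3p -0.30 beside the positive values of their 5p arms. Members of the list are close in sequence, so probes may read more than 1 of them and they are not independent measurements. In sham mice the 5p arms had a median of 0.53 and the 3p arms of -0.35. The DMM medians were 0.36 and -0.22 without the 4 arrays that stand apart. They were 0.47 and -0.33 with the gradient score as a covariate. Without those 4 arrays 7 of the 5p arms were higher at an unadjusted p under 0.05, as were 28 of all 490. In that fit 0 of the 8 3p arms were positive, but 0 were lower at that p, against 9 of all 490.

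**Figure D2:**
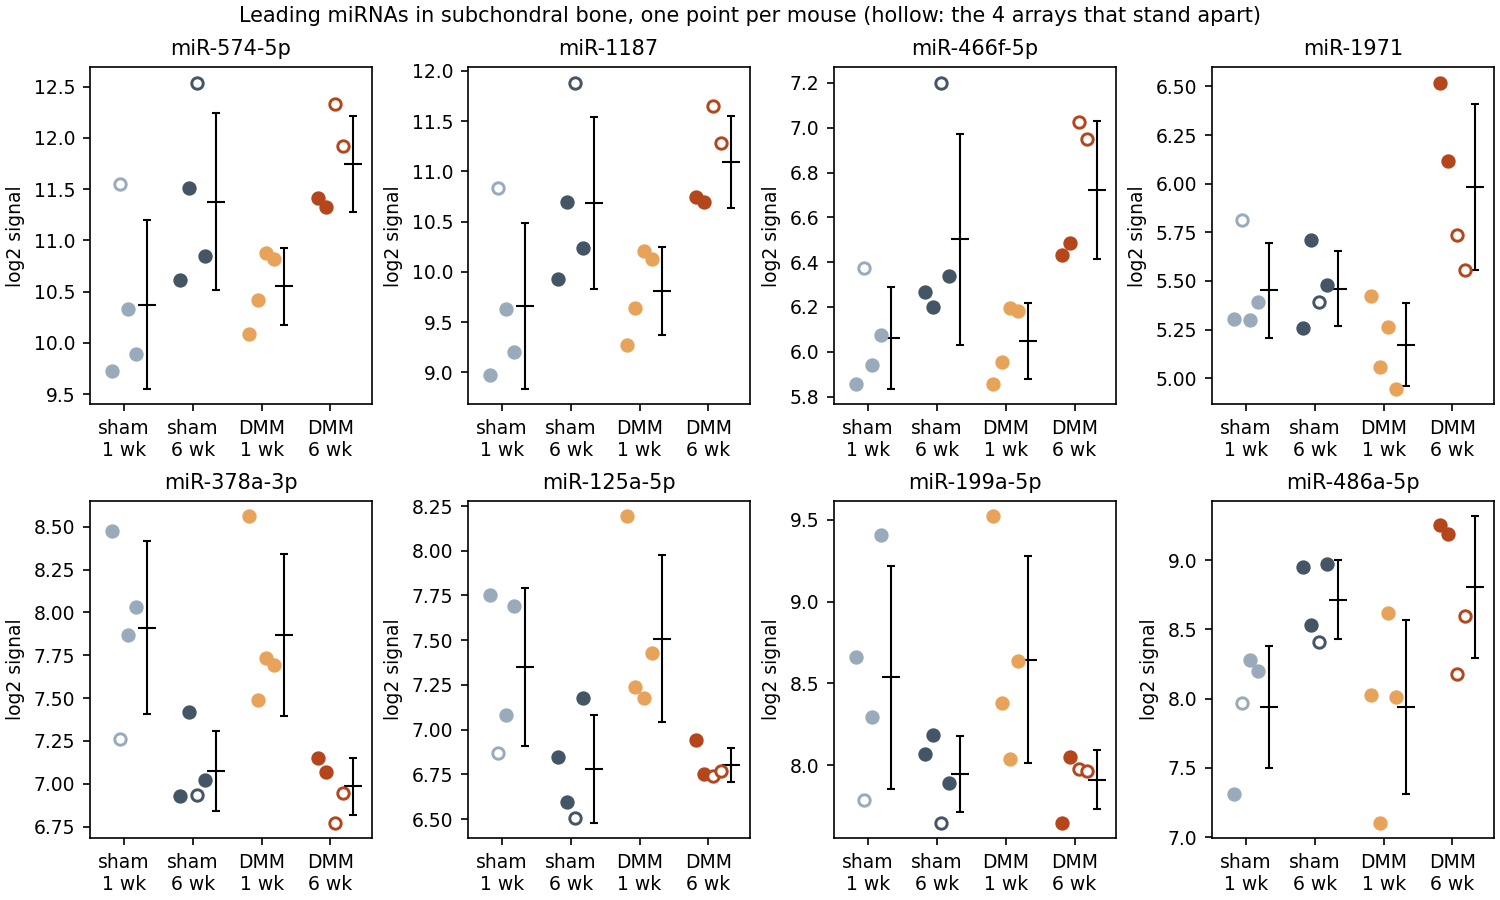
Log2 signal of 8 miRNAs in each of the 16 bone arrays, one point per mouse, by group, with the group mean and SD (n = 4) beside the points; hollow points are the 4 arrays that stand apart. In miR-574-5p, miR-1187, miR-466f-5p and miR-1971 all 4 DMM mice at 6 weeks lie above the 4 DMM mice at 1 week, in miR-378a-3p and miR-125a-5p all lie below, and in miR-199a-5p and miR-486a-5p the weeks overlap.

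miR-1971 was the miRNA with the smallest unadjusted p (0.00114) and had its highest signals in mice 5 and 6. It had 5.42, 5.05, 5.26 and 4.94 in DMM mice 67, 77, 85 and 93 at 1 week and 6.52, 6.12, 5.74 and 5.56 in mice 5, 6, 21 and 25 at 6 weeks. The groups did not overlap, and the arrays that stand apart, 21 and 25, were the lowest of the 6-week group. The difference was 0.81 ± 0.20 (SE) with an adjusted p of 0.212 by limma and an exact permutation p of 0.0286. Sham mice had 5.30 to 5.81 at 1 week and 5.26 to 5.71 at 6 weeks, a difference of 0.01.

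In the fit without the 4 arrays that stand apart, miR-1971 passed the threshold, alone among the 490, with a difference of 1.15 and a limma adjusted p of 0.0244. That fit kept only mice 5 and 6 of the 6-week DMM group, the mice with its highest miR-1971 signals, and left out its lowest. Over all 25 alternatives the limma adjusted p of miR-1971 ran from 6.71e-04 to 0.497. Of its 16 signals all but that of mouse 5 lay below 6.17 to 6.39, the range of the array medians, in a range where background can take a large part of the signal, and scanner background was not used here.

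miR-6904-5p, a miRNA with a late catalogue number, had 5.92, 5.73, 5.69 and 5.81 at 1 week and 5.92, 6.39, 6.98 and 7.08 at 6 weeks. Mouse 5 was level with mouse 67 at this rounding and lay barely above it, while mice 21 and 25 were highest. The difference of 0.81 ± 0.26 (SE), with an adjusted p of 0.212 by limma, was 0.37 without the 4 arrays that stand apart and 0.57 in sham mice. Of 145 measured miRNAs with a number of 6000 or above, which entered catalogues late, 23 were higher and 0 lower at an unadjusted p under 0.05. The higher share of 15.9% is near the 14.5% of all 490 and is no result about these miRNAs. Their median was 0.16, and -0.01 without the 4 arrays.

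Among the lower miRNAs the miR-378 family led. miR-378a-3p, encoded within the gene of the metabolic coactivator PGC-1 beta and known in fat and muscle metabolism, had 8.56, 7.49, 7.73 and 7.69 at 1 week and 7.15, 7.07, 6.77 and 6.95 at 6 weeks. All 4 mice at 6 weeks lay below all 4 at 1 week, and mouse 67 was the highest. The difference was -0.88 ± 0.25 (SE), 1.85-fold lower at 6 weeks, with an adjusted p of 0.212 by limma and an exact permutation p of 0.0286. In sham mice it was -0.84, from 7.26 to 8.48 at 1 week to 6.93 to 7.42 at 6 weeks.

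The other measured family members had the same sign. miR-378b had -0.79 ± 0.30 (SE), from 7.58, 6.54, 6.75 and 6.64 to 6.26, 6.29, 5.71 and 6.07, and miR-378d had -0.69 ± 0.26 (SE). Neither overlapped between weeks. The passenger arm miR-378a-5p had -0.47 and an unadjusted p of 0.064. The family median was -0.74 in DMM and -0.84 in sham mice, and -0.52 in DMM mice without mouse 67. It was -0.59 without the 4 arrays that stand apart, and leaving them out kept the sign of all 4 members. There 3 of the 4 members were still lower at an unadjusted p under 0.05, against 9 of all 490. Cross-reading between the probes of miR-378b and miR-378d, whose sequences share the run given above, was not tested.

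miR-125a-5p, a relative of the lin-4 miRNA of worms, had 8.19, 7.24, 7.18 and 7.43 at 1 week and 6.94, 6.75, 6.74 and 6.77 at 6 weeks. The weeks did not overlap, and the 6-week DMM mice lay close to each other. The difference was -0.71 ± 0.24 (SE), with an adjusted p of 0.212 by limma, -0.66 without the 4 arrays and -0.57 in sham mice. Its cluster neighbours had the same sign, with -0.62 ± 0.25 (SE) for miR-99b-5p and -0.56 ± 0.28 (SE) for let-7e-5p. miR-99b-5p had 7.09, 6.39, 6.25 and 6.42 at 1 week and 6.14, 5.95, 5.75 and 5.83 at 6 weeks, with mouse 67 highest as in miR-125a-5p.

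miR-132-3p, which is induced by CREB signalling and was listed with inflammation-linked miRNAs, had 6.62, 6.06, 5.47 and 5.64 at 1 week and 5.44, 5.36, 4.99 and 5.10 at 6 weeks. The gap between the weeks was narrow, and the difference of -0.72 ± 0.26 (SE) had an adjusted p of 0.212 by limma. The 6 inflammation-linked miRNAs had a median of -0.24, with 1 lower at an unadjusted p under 0.05 (16.7%, against 4.90% of all 490). miR-21a-5p, commonly raised in inflamed and fibrotic tissue, had -0.46, miR-146b-5p -0.42, miR-212-3p -0.05, miR-146a-5p 0.05 and miR-155-5p 0.09. The list median was 0.02 without the 4 arrays, so it had no direction that held.

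miR-326-3p had 5.73, 5.73, 5.55 and 5.99 at 1 week and 5.36, 5.64, 4.74 and 5.13 at 6 weeks, overlapping through mouse 6. Its difference was -0.53 ± 0.20 (SE), with an adjusted p of 0.212 by limma and an exact permutation p of 0.0571, and -0.25 without the 4 arrays. miR-145a-5p, a miRNA of smooth muscle and stromal cells, had 6.37, 5.83, 5.79 and 5.86 at 1 week and 5.64, 5.52, 5.28 and 5.34 at 6 weeks, without overlap. Its difference was -0.52 ± 0.19 (SE), with an adjusted p of 0.212 by limma.

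Mesenchymal miRNAs are those of fibroblasts, osteoblast precursors and other stromal cells. Of 12 measured, 11 were negative, 5 were lower at an unadjusted p under 0.05 (41.7%, against 4.90% of all 490), and the median was -0.56 against -0.02 over all 490. The median was -0.37 without mouse 67 and -0.33 with the gradient score as a covariate. Without the 4 arrays it was -0.52, with 1 member lower at that p in place of 5. In that fit 9 of all 490 were lower at that p. miR-199a-5p, encoded with miR-214 in the Dnm3os transcript of skeletal mesenchyme, had 9.52, 8.38, 8.04 and 8.64 at 1 week and 7.65, 8.05, 7.98 and 7.97 at 6 weeks. Mouse 67 stood highest, and mouse 6 overlapped with mouse 85. The difference was -0.73 ± 0.32 (SE), and miR-214-3p had -0.70 ± 0.31 (SE) and miR-199a-3p -0.65 ± 0.29 (SE), with limma adjusted p of 0.216, 0.222 and 0.222. miR-214-5p, the passenger arm, had 0.24.

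The summed signal of the 12 mesenchymal miRNAs was 11.74 to 12.96 (log2) at 1 week and 11.55 to 11.75 at 6 weeks in DMM mice, overlapping at 1 mouse. In sham mice it was 11.64 to 12.78 and 11.49 to 11.97, and the sham list median was -0.53. Mouse 67 held the highest of the DMM sums, 12.96, and the other 1-week DMM mice had 11.74 to 12.10.

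Markers of red and white blood cells were listed apart, and no test compared the lists. Of 5 erythroid miRNAs, all were positive, 2 were higher at an unadjusted p under 0.05 (40%, against 14.5% of all 490) and the median was 0.53, against 0.20 in sham mice. miR-451a, the main miRNA of red blood cells, had 12.35, 10.93, 12.61 and 12.05 at 1 week and 12.91, 13.34, 12.50 and 13.26 at 6 weeks. Mouse 21 at 6 weeks lay below mouse 85 at 1 week, and the difference was 1.01 ± 0.44 (SE) with an adjusted p of 0.216 by limma. miR-486a-5p, also of red cells, had 8.03, 7.10, 8.62 and 8.01 at 1 week and 9.25, 9.19, 8.18 and 8.60 at 6 weeks, a difference of 0.86 ± 0.31 (SE) with overlap. In sham mice miR-451a and miR-486a-5p differed nearly as much, by 0.90 and 0.78. Their DMM differences were larger without the 4 arrays that stand apart, 1.14 and 1.28, and the DMM list median was 1.01. The list median was 0.94 with the gradient score as a covariate.

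The summed erythroid signal ranged over 11.11 to 12.75 at 1 week and 12.61 to 13.46 at 6 weeks in DMM mice. In sham mice it ranged over 11.23 to 13.48 and 12.96 to 13.56. How far more red cells or their precursors in the cut tissue account for it was not tested. The 7 leukocyte miRNAs had a median of 0.09, with 5 positive and 0 at an unadjusted p under 0.05 in either direction. Leaving out the 4 arrays gave a median of 0.20, with 7 of 7 positive and 1 higher at that p, against 28 of all 490. On all arrays their summed signal was 12.67 to 13.58 at 1 week and 12.30 to 13.44 at 6 weeks. miR-223-3p had 12.31, 13.42, 12.77 and 12.72 at 1 week and 12.50, 13.14, 11.91 and 12.44 at 6 weeks, a difference of -0.31 ± 0.30 (SE).

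Lists tied to bone cells had few members at an unadjusted p under 0.05. Of 12 measured miRNAs linked to osteoblasts, 10 were negative and 1 was lower at that p (8.33%, against 4.90% of all 490), with a median of -0.28. This median was -0.16 without mouse 67 and -0.12 with the gradient score as a covariate. That one was miR-24-3p, from the miR-23/27/24 cluster, with 10.48, 10.03, 9.75 and 9.84 at 1 week and 9.52, 9.73, 9.54 and 9.52 at 6 weeks and a difference of -0.45 ± 0.21 (SE). The weeks did not overlap. Of 10 measured miRNAs linked to osteoclasts, 8 were negative and 2 were lower at that p, miR-378a-3p and miR-125a-5p, both already given (20.0%, against 4.90% of all 490), and the median was -0.39. It was -0.22 without the 4 arrays and -0.13 with the gradient score as a covariate. The collagen-targeting miR-29 family had -0.10 for miR-29a-3p, -0.24 for miR-29b-3p and -0.13 for miR-29c-3p.

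Of 12 miRNAs linked to adipocytes, which fill part of the marrow, all 12 were negative, 2 were lower at an unadjusted p under 0.05 (16.7%, against 4.90% of all 490), miR-378a-3p and miR-193b-3p, the latter with -0.65 ± 0.26 (SE), and the median was -0.46. On the arrays left after those 4, 8 of 12 were negative and the median was -0.23. The endothelial miR-126a-3p and miR-126a-5p both had -0.54, with summed signals of 9.74 to 10.92 at 1 week and 9.58 to 10.01 at 6 weeks. The 3 cartilage miRNAs had a median of -0.28 and summed signals of 9.74 to 10.61 and 9.64 to 9.85. Of 7 muscle miRNAs, miR-206-3p alone was measured, with 0.61, and its mature sequence also holds UGUGUG. The part of any of these cell types in the other results was not tested.

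**Figure D3:**
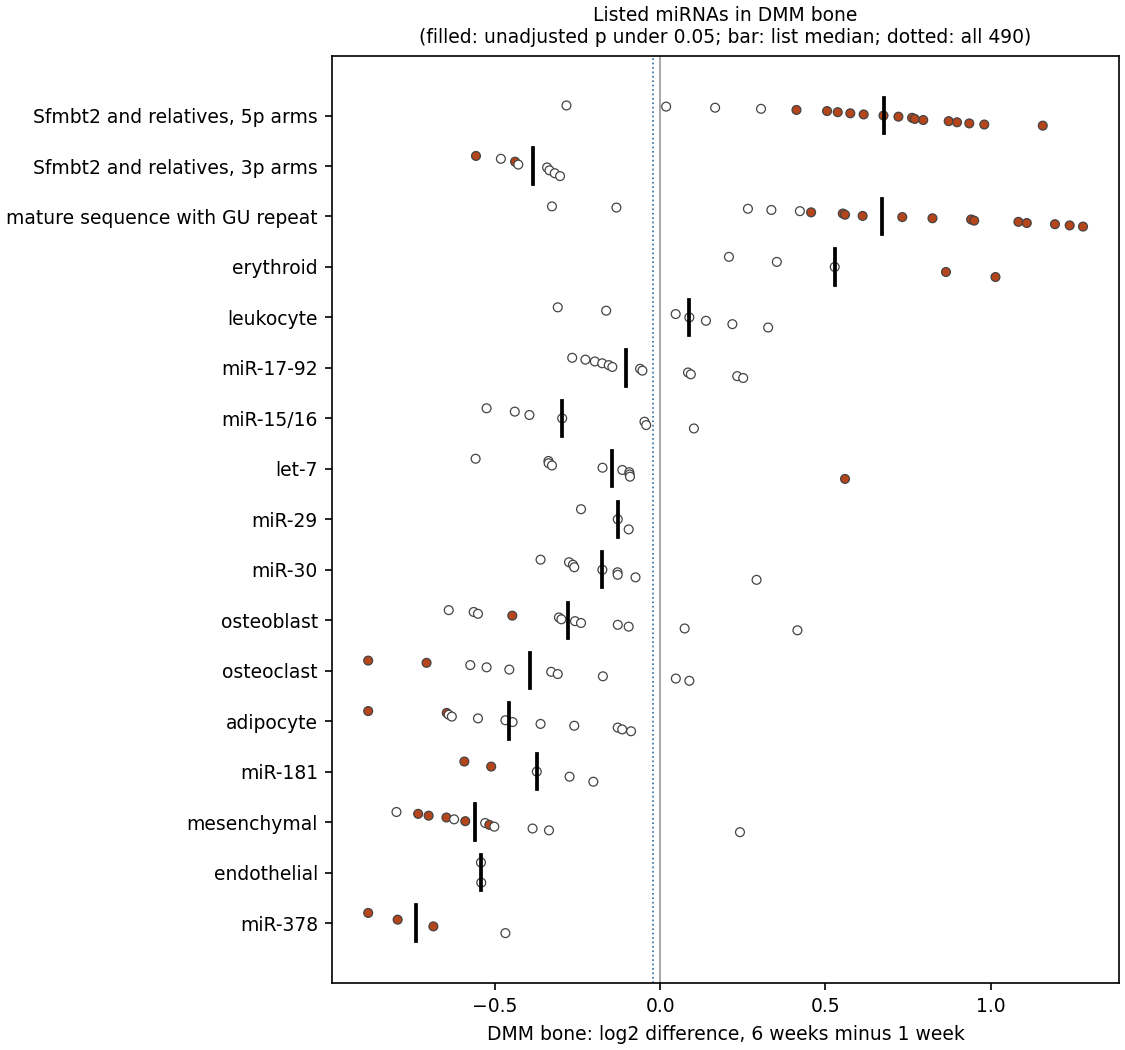
Difference between 6 weeks and 1 week (log2) in DMM bone for each measured member of 17 lists, one point per miRNA; filled points have an unadjusted p under 0.05, black bars are list medians and the dotted line is the median of all 490 miRNAs (-0.02). The 5p arms of the Sfmbt2 list (median 0.68) and the miRNAs with a GU repeat (0.67) lie to the right, and the mesenchymal (-0.56) and miR-378 (-0.74) lists to the left.

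Large conserved families had few or no members at an unadjusted p under 0.05. The 10 let-7 members had a median of -0.14. let-7k, a late-named member that holds UGUGUG, had 0.56 and was the only one at an unadjusted p under 0.05. That share of 10% is below the 14.5% higher of all 490 and is no result about the family. The miR-30 family (9 measured) had a median of -0.18 and the miR-15/16 family (7 measured) of -0.30, with 0 at that p in each. The miR-15/16 median was -0.02 and the miR-30 median 0.01 without the 4 arrays. The miR-17 and miR-92 family (12 measured), known to drive growth of blood and progenitor cells, had -0.10 with 4 positive. Leaving out the 4 arrays gave a median of 0.30 with 12 of 12 positive, so the sign of this family depended on them.

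Of 5 miR-181 family members, all were negative with a median of -0.37 (-0.22 without mouse 67). miR-181b-5p (-0.51) and miR-181a-1-3p (-0.59) were lower at an unadjusted p under 0.05 (40%, against 4.90% of all 490). Grouped by shared seed, the seed CAGUGCA of miR-148 and miR-152 (3 members) had a median of -0.58 and the seed ACCCGUA of miR-99 and miR-100 (3 members) of -0.53. Those were the lowest medians among the 9 seeds with at least 3 measured members. miR-210-3p, which low oxygen induces, had -0.42, miR-34a-5p -0.33, miR-200c-3p -0.17, miR-221-3p -0.36 and miR-222-3p -0.26. Of 9 measured miRNAs of the imprinted Dlk1-Dio3 cluster, miR-539-5p (0.58) was higher at that p, and the median was 0.08. That share of 11.1% is below the 14.5% of all 490 and is no result about the cluster.

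Between weeks the sham mice differed in the same direction as the DMM mice in most miRNAs. In sham bone 0 of 490 miRNAs (0%) passed an adjusted p of 0.05 by limma, with a smallest of 0.414, and 36 were higher (7.35%) and 18 lower (3.67%) at an unadjusted p under 0.05. The DMM and sham changes share no array, and across the 490 miRNAs they had a Pearson correlation of 0.861 and a Spearman correlation of 0.833. The Pearson correlation was 0.440 without the 4 arrays that stand apart, of which 3 are 6-week arrays. All 95 miRNAs with an unadjusted p under 0.05 in DMM had the same sign in sham mice. Given the correlation over all 490, that is no separate result about the 95. Of the 95, 42 were under that p in sham mice too, which is 44.2% of the DMM set and 77.8% of the sham set of 54. Of the 55 miRNAs whose weeks did not overlap in DMM mice, 0 were without overlap in sham mice, where 7 lay above (1.43%) and 4 below (0.816%).

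**Figure D4:**
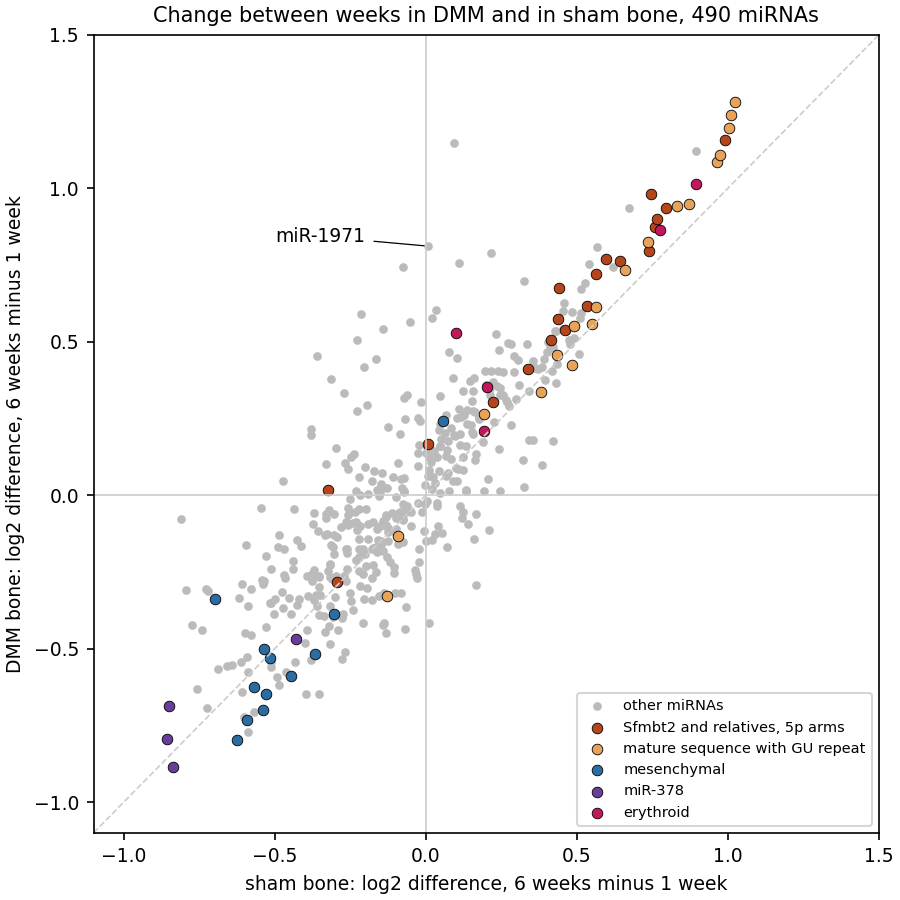
Difference between 6 weeks and 1 week (log2) in DMM bone (vertical) against sham bone (horizontal), one point per miRNA for all 490, with the dashed line of equal change; coloured points are listed groups, and a miRNA in several groups takes the last colour drawn. GU-repeat and Sfmbt2 5p miRNAs lie at the upper right and mesenchymal and miR-378 miRNAs at the lower left in both, while miR-1971 has 0.81 in DMM and 0.01 in sham mice.

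The difference between the DMM change and the sham change was tested directly. By limma 0 of 490 (0%) passed an adjusted p of 0.05, the smallest adjusted p was above 0.99, and 1 miRNA (0.204%) had an unadjusted p under 0.05. That was miR-1971, with a change 0.80 larger in DMM mice (95% interval 0.19 to 1.42) and an unadjusted p of 0.0137. The median half-width of the interval was 0.69 over the 490, so this design leaves room for differences of that size between DMM and sham mice in most miRNAs. For miR-1187 the change was 0.26 larger in DMM mice with an interval of -1.03 to 1.54, and for miR-378a-3p it was -0.05 with -0.81 to 0.71.

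The next largest by unadjusted p did not pass. On the higher side these were miR-362-5p (0.73, -0.02 to 1.49), miR-6351 (0.59, -0.09 to 1.28), miR-18b-5p (0.39, -0.09 to 0.87) and miR-652-3p (0.37, -0.10 to 0.85). For miR-362-5p the DMM mice barely differed between weeks (-0.08), and the sham mice carried the difference, with 5.63 to 6.34 at 1 week and 4.55 to 5.47 at 6 weeks. miR-18b-5p, a relative of miR-18a from the X-linked miR-106a cluster, had 5.30, 5.39, 5.11 and 5.38 at 1 week and 5.87, 5.74, 5.54 and 5.90 at 6 weeks in DMM mice, without overlap. Its difference of 0.47 ± 0.16 (SE) was 0.51 without the 4 arrays and 0.08 in sham mice.

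On the lower side were miR-574-3p (-0.28, -0.75 to 0.19), miR-134-5p (-0.37, -1.04 to 0.31), miR-125a-3p (-0.32, -0.96 to 0.33), miR-344i (-0.30, -0.94 to 0.34) and miR-7241-3p (-0.22, -0.68 to 0.25). miR-134-5p, of the Dlk1-Dio3 cluster, had 5.99, 6.44, 6.78 and 6.50 at 1 week and 6.01, 6.12, 5.62 and 6.23 at 6 weeks in DMM mice, overlapping through mouse 67. Its difference there was -0.44, against -0.07 in sham mice. Every interval on this side included 0.

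Both counts depended on the arrays that stand apart. With the gradient score as a covariate 57 miRNAs were higher (11.6%) and 20 lower (4.08%) at an unadjusted p under 0.05, and 0 (0%) passed an adjusted p of 0.05 by limma. Across the 490 miRNAs the loading on the first component and the DMM difference had a Pearson correlation of 0.669, and of -0.01 without the 4 arrays that stand apart. Those arrays were picked by their score on this same component. The fall of the correlation therefore follows at least in part from the choice and is no separate evidence. Without them 28 miRNAs were higher and 9 lower at an unadjusted p under 0.05, and of the original 71 and 24, 15 and 4 were among those. The 15 were miR-1971, miR-18b-5p, miR-195a-3p, miR-486a-5p, miR-1187, miR-574-5p, miR-3082-5p, miR-468-3p, miR-669n and 6 other members of the Sfmbt2 list. The 4 were miR-378a-3p, miR-378b, miR-378d and miR-125a-5p. Leaving out mouse 25 alone left 19 higher and 8 lower, and leaving out mouse 21 alone left 20 and 8. Leaving out mouse 67, the 1-week DMM mouse with the lowest gradient score of its group (-8.03), left 41 and 8.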

How the data were processed

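miRNA was measured on Agilent SurePrint mouse miRNA arrays (release 21, 70 ng of total RNA, Cy3) per the labels' protocols. The deposited values are read here as log2 signals, judged by their range, and were used as given. Of software, the submitters' processing notes give limma 3.20.9. For the background correction, normalization and row filter, the method is not stated in these sources. Unused columns of sample values numbered 0.

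A group-means model was fitted with limma 3.58.1 in R 4.3.3 to the 16 bone arrays over the 490 rows with a value on all of them, with empirical Bayes moderation and Benjamini-Hochberg adjustment over the 490, at a threshold of 0.05. The contrasts were DMM 6 weeks minus 1 week, the same in sham, and their difference. Single miRNAs had an exact permutation test, 4 arrays against 4. P-values measure the spread between mice. The fit was tested on simulated data.

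For each direction the text names the 12 largest changes past the threshold or, where fewer than 5 passed, the 5 with the smallest unadjusted p, likewise for the difference, and listed miRNAs. The members and lists were chosen with earlier results of these data known. miR-99b-5p, miR-468-3p, miR-195a-3p and miR-5622-3p, outside this rule, and the UGUGUG motif were chosen after their values were seen. Alternatives were other scalings, filters, priors, array weights, the gradient score as a covariate, and other sets of arrays. Sequences are RefSeq's.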

Additional observations from a re-analysis of the deposited data

Results flagged for a closer look

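In each group of 4 arrays the gap between the extreme array and its nearest neighbour was set against the group's range, for the 19 miRNAs named by rule. In 5 of 76 groups an array lay farther out than Dixon's 95% limit, and chance gives about 1 in 20 groups. Mouse 5 was highest for miR-125a-5p in DMM bone at 6 weeks, at 6.94 against 6.74 to 6.77 in the others, a gap that is small because those 3 nearly coincide. Mouse 67 was highest for miR-145a-5p in DMM bone at 1 week, at 6.37 against 5.79 to 5.86. In sham bone at 6 weeks mouse 22, one of the arrays that stand apart, was highest for miR-466f-5p at 7.20, mouse 10 for miR-652-3p at 8.59 and mouse 12 for miR-125a-3p at 7.09. Mouse 67 was also the highest 1-week DMM mouse for miR-378a-3p, miR-125a-5p and miR-132-3p, within the limit.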

How the results depend on the processing

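No paired analysis was possible because the bone mice of each group carry different numbers. For the DMM change, 0 miRNAs passed an adjusted p of 0.05 with quantile normalization, centring on the 75th percentile, rows below the median left out, a trend and robust prior, the gradient score as covariate, only the 8 DMM arrays, or any 1 array left out. Array weights gave 147 higher and 127 lower, but their estimate stopped before it converged; weights by the gene-by-gene method, chosen after seeing the data, gave 87 and 30. Leaving out the 4 arrays that stand apart, also chosen after seeing the data, gave 1 higher (miR-1971) and 0 lower. In the planned estimate the weights ranged from 0.187 (sham mouse 68) to 6.21 (DMM mouse 93). Within the 6-week DMM group they were 0.232 and 0.313 for mice 5 and 6, and 2.01 and 2.88 for mice 21 and 25. Gene by gene they were 0.435 and 0.599, and 1.04 and 1.23. Both kinds of weights thus favoured mice 21 and 25, the mice that the fit without the 4 arrays leaves out.

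At an unadjusted p under 0.05 the 71 higher were 37 with rows below the median left out (fewer miRNAs tested), 158 and 113 with the 2 kinds of weights, and 28 without the 4 arrays. The 24 lower were 37 with quantile normalization, 9 with rows below the median left out, 150 and 72 with weights, 40 in the fit to the 8 DMM arrays alone (also 40 over all rows with values on them), and 9 without the 4 arrays. With 1 array left out the counts ran from 19 to 88 higher and from 8 to 39 lower. The higher count was 41 without mouse 77, and the lower count was 37 without mouse 85, 15 without mouse 93 and 39 without mouse 5. For sham, 78 higher and 62 lower passed with array weights, 0 with gene-by-gene weights, and leaving out 1 array gave 0 to 5 lower, the 5 without mouse 68. For the difference of changes 0 passed under each alternative run. The causes of these moves were not tested.

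The named miRNAs kept their sign in each alternative fitted; of 490 such values, 470 kept their side of the threshold and 20 passed it, each with array weights except miR-1971 without the 4 arrays. The DMM median over all miRNAs was -0.05 with quantile normalization and -0.08 with centring. With the gradient score as covariate the let-7, miR-29, miR-30, miR-15/16, miR-17 and miR-92, and inflammation medians and the single miR-200c-3p turned positive (0.08, 0.15, 0.05, 0.01, 0.26, 0.02 and 0.09), and the Dlk1-Dio3 median and that of miRNAs numbered 6000 or above turned negative (-0.07 and -0.04). Background readings of the scanner were not used, so low signals such as those of miR-1971 carry the most doubt.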

Other observations

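A pair of bright miRNAs varied between mice far more than between weeks. miR-494-3p, of the Dlk1-Dio3 cluster, had log2 signals of 10.04, 12.30, 10.67 and 11.32 in DMM mice 67, 77, 85 and 93 at 1 week and 9.90, 10.80, 13.09 and 12.80 in mice 5, 6, 21 and 25 at 6 weeks. Mice 21 and 25 were high and mice 5 and 6 were not, so the 6-week mice spanned the 1-week range, and the difference was 0.57 ± 0.84 (SE). miR-5622-3p had 7.56 to 9.72 at 1 week and 8.82, 8.38, 11.62 and 11.10 at 6 weeks. Its difference of 1.15 ± 1.07 (SE) was the only one at least 2-fold among those with an unadjusted p above 0.05, and it was -0.23 without the 4 arrays that stand apart. Sham mice 68 and 22 had 12.51 and 11.95 for miR-5622-3p, the highest of the 16 arrays. These miRNAs were named after their values were seen, and they had the largest loadings on the first component.

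miR-412-3p, another Dlk1-Dio3 member, separated the 6-week DMM mice otherwise. It had 4.88, 4.68, 4.60 and 4.96 at 1 week and 5.92, 5.82, 5.80 and 4.36 at 6 weeks, so mice 5, 6 and 21 lay above every 1-week mouse while mouse 25 was the lowest of the 8. The difference was 0.70 ± 0.35 (SE) with an adjusted p of 0.288 by limma. Sham mouse 10 had 6.21 and the other sham mice 4.40 to 4.96, and none of these signals lay above the range of the array medians.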
